A study of Mus musculus with 8 samples.

Results

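Cx3cr1, Fcrls, C1qb, Tyrobp, Spi1, Cd52 and Cybb, a set of 7 genes that mark macrophages and other blood-derived cells, were followed in bone-derived stromal cell cultures of mice without and with the hyaluronan synthase genes. They were taken from the deposited gene table by exact name, and all 7 were found, each on 1 locus, among 49868 loci that carry a gene name. The set was chosen by its FPKM values in the same Has-tKO against wildtype comparison, so levels and fold changes describe these libraries and are no independent test. The 4 Has-tKO mice carry constitutive knockouts of Has1 and Has3 and an inducible knockout of Has2, and the 4 wildtype mice are C57Bl6/J. Mesenchymal stem cells (MSc) of both genotypes, isolated from femora and tibiae, went through 4 passages. In passages 2 and 3 they received 4-hydroxytamoxifen, the inducer of the Has2 knockout, for 48 h, in both genotypes. RNA was taken after 7 days in osteogenic medium, 1 culture per mouse. The sources used here do not give the Cre driver, the age of the mice or how blood-derived cells were depleted, if they were.

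Macrophages are phagocytes of the monocyte lineage that live in nearly every tissue, bone marrow included, and can persist among adherent stromal cells in culture. Their identity rests on the transcription factor PU.1, the product of Spi1, which binds purine-rich DNA and opens many myeloid genes. Among the products of such genes are surface receptors that signal through adaptors with an immunoreceptor tyrosine-based activation motif (ITAM), the complement starter C1q and the superoxide-producing oxidase of phagocytes. Hyaluronan, the matrix polymer made by the Has enzymes, is bound by receptors on both stromal cells and macrophages.

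Levels are FPKM as deposited, a fragment count divided by transcript length and by the mapped total. Fold changes are differences of mean log2(FPKM + 1), Has-tKO minus wildtype, and understate the change of genes near 1 FPKM. The p-values come from limma, adjusted over 9916 named genes with at least 1 FPKM in at least 4 of 8 libraries. The columns summed to 205220 to 259871 FPKM in Has-tKO and 198221 to 240726 FPKM in wildtype, and no read depth is known. Wildtype 1 stood apart: its size factor was 0.684, against 0.990 to 1.11 in the other 7 libraries. The median fold change of all tested genes was 0.16, and 0.01 after median-ratio scaling, so both fits are given for the 7 genes and for part of the others. Where only 1 fit is given, it is the unscaled one, and the scaled one can differ. No locus named Has1 or Has2 was found, and Has3 had 0.150 to 0.663 FPKM in Has-tKO and 0.236 to 0.466 FPKM in wildtype, too low to check the labels.

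All 7 genes had a higher mean in Has-tKO than in wildtype cultures, by 1.68-fold for Tyrobp at the low end and 4.77-fold for Fcrls at the high end. In the unscaled fit 4 passed the threshold of 0.05 on the adjusted p: Fcrls, Cx3cr1, Cd52 and Spi1. Of all tested genes 1.77% passed, with 1.58% higher and 0.192% lower, and nothing is read from the 4 of 7, since the choice of genes used this contrast. After scaling 3 of the 7 passed (Cx3cr1, Fcrls and Cybb), against 2.82% of all tested genes, 1.73% higher and 1.09% lower. In 5 of 7 genes every Has-tKO library lay above every wildtype library, which was also the case for 12.0% of all tested genes. Those 5 were the 4 that passed and Cybb, while C1qb and Tyrobp overlapped. After scaling the groups did not overlap in 4 of 7 genes, against 7.18% of all tested genes. Because these are bulk cultures, more cells of a type and more RNA per cell cannot be told apart.

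**Figure D1:**
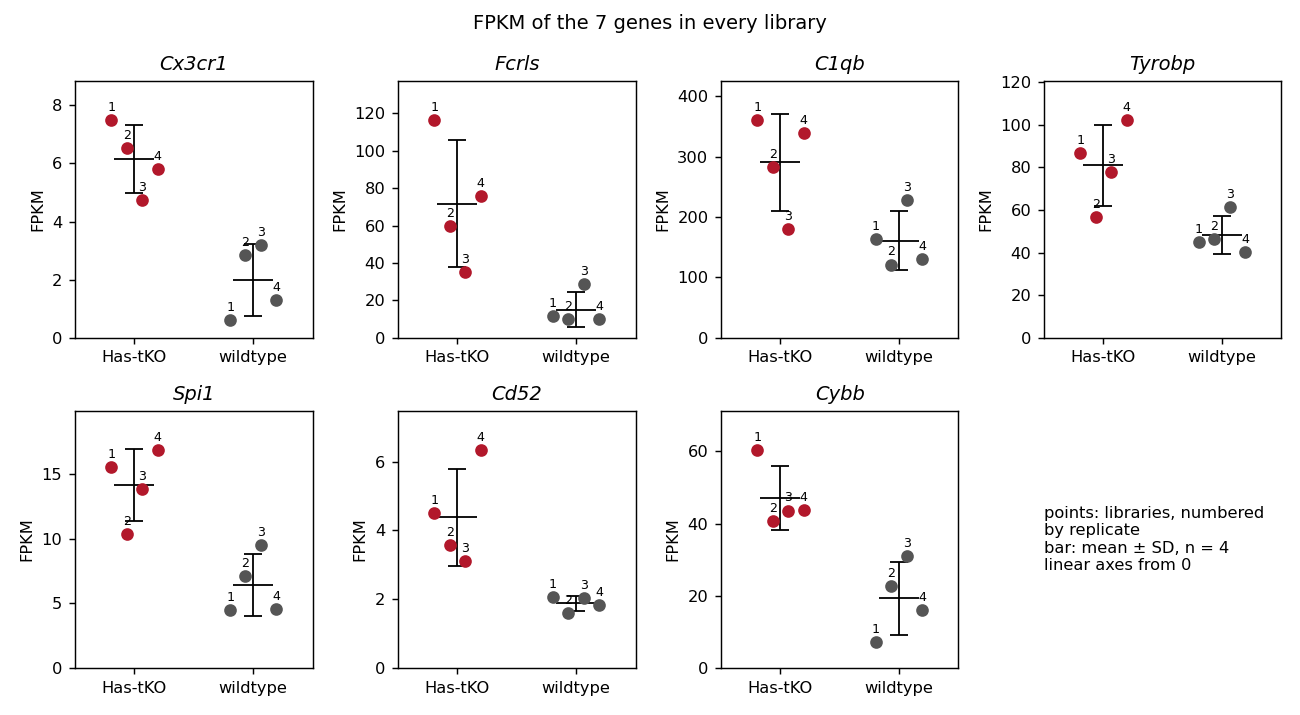
FPKM (linear axes from 0) of each of the 7 genes in the 4 Has-tKO libraries (left) and the 4 wildtype libraries (right); points are libraries numbered by replicate and bars are mean ± SD. Wildtype 3 is the highest wildtype library for 6 of the 7 genes and reaches into the Has-tKO range for C1qb and Tyrobp.

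Spi1 encodes PU.1, the transcription factor on which the macrophage lineage depends. It had 15.5, 10.4, 13.9 and 16.8 FPKM in Has-tKO 1 to 4, against 4.50, 7.14, 9.54 and 4.54 FPKM in wildtype 1 to 4. Every Has-tKO library was above every wildtype library, although Has-tKO 2 and wildtype 3 lay close together. Spi1 rose 2.20-fold in the mean (log2 fold change 1.06, SE 0.23, adjusted p = 0.0458), and it missed the threshold after scaling (0.88, SE 0.20, adjusted p = 0.0535).

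The proximal promoters of the other genes were read for the purine box of PU.1, because its gene is among the 7. Windows of 300 bases (250 before the start and 50 after it) from the RefSeq promoter table of build GRCm38.p6 were found for Cx3cr1, Fcrls, C1qb and Cybb. The submitters' processing notes name GRCm39 and hg38 and not this build, so these coordinates belong to the RefSeq table alone. The letters GAGGAA, on either strand, occurred in the windows of Fcrls (first base at position -144 from the start), C1qb (-30) and Cybb (10 after the start, as TTCCTC), and not in that of Cx3cr1. The same letters were found in 28.3% of 32851 windows of all genes. The longer form GAGGAAGT, in 3.20% of all windows, was in none of the 4, and TATAAA, in 13.6% of all windows, was in that of Fcrls (-217). The 3 sequences that hold GAGGAA are shown on the gene's own strand, which is the minus strand in each case, with matches to GAGGAA or TATAAA in capitals. For Fcrls and C1qb they are the 250 bases before the start (chr3:87263525-87263774 and chr4:136886201-136886450), and for Cybb a short stretch after it (chrX:9469301-9469324).
Fcrls: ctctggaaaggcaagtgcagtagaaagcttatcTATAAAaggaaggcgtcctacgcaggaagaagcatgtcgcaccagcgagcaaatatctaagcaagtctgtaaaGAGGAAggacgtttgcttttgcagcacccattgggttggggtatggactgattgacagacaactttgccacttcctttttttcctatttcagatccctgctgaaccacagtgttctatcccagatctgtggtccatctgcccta
C1qb: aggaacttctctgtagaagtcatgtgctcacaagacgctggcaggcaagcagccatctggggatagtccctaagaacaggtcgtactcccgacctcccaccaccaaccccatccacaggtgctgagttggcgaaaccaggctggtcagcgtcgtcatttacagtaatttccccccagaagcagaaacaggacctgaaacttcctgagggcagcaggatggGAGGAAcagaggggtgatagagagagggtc
Cybb: tgttttcatTTCCTCatcagaaga
A match of these letters is a description of the sequence, and binding was not measured. No form of the box other than GAGGAA and GAGGAAGT was searched, so any other form is left in small letters.

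Fcrls encodes a scavenger-receptor-related member of the Fc receptor-like family that in mice is known as a marker of microglia, the macrophages of the brain. It had 116, 59.9, 35.0 and 75.6 FPKM in Has-tKO 1 to 4, against 11.4, 9.89, 28.9 and 9.97 FPKM in wildtype 1 to 4. The other wildtype libraries were nearly level and far below wildtype 3, and the lowest Has-tKO library (3) was just above wildtype 3. Fcrls rose by the third-largest log2 fold change of all 9916 tested genes (2.20, SE 0.38, adjusted p = 0.0190), and it also passed after scaling (2.00, SE 0.40, adjusted p = 0.0343).

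Cx3cr1 is the receptor for fractalkine, a chemokine that holds monocytes and macrophages near the cells that make it. It had 7.49, 6.55, 4.74 and 5.81 FPKM in Has-tKO 1 to 4, against 0.625, 2.86, 3.18 and 1.29 FPKM in wildtype 1 to 4. The wildtype libraries spread more widely in proportion (coefficient of variation 61.7%) than the Has-tKO libraries (18.9%), with wildtype 1 lowest. Cx3cr1 rose 3.09-fold in the mean (log2 fold change 1.35, SE 0.28, adjusted p = 0.0371), and passed after scaling (1.22, SE 0.24, adjusted p = 0.0334).

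Cd52 is a very short glycosylphosphatidylinositol-anchored glycoprotein of leukocyte surfaces, not confined to macrophages. It had the lowest mean of the 7 in Has-tKO, with 4.50, 3.57, 3.10 and 6.33 FPKM in Has-tKO 1 to 4, against 2.05, 1.60, 2.04 and 1.84 FPKM in wildtype 1 to 4. The wildtype libraries were close to each other (1.88 ± 0.214 FPKM, SD, n = 4), and wildtype 3 did not stand out. Cd52 rose in the unscaled fit (log2 fold change 0.87, SE 0.19, adjusted p = 0.0454). After scaling the groups overlapped and it did not pass (0.71, SE 0.21, adjusted p = 0.112).

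Tyrobp encodes DAP12, the ITAM adaptor of Trem2 and related myeloid receptors. It had 86.8, 56.9, 78.0 and 102 FPKM in Has-tKO 1 to 4, against 45.1, 46.5, 61.3 and 40.4 FPKM in wildtype 1 to 4. Wildtype 3 was above Has-tKO 2, so the groups overlapped. Tyrobp did not pass (log2 fold change 0.72, SE 0.20, 95% interval 0.27 to 1.16, adjusted p = 0.0947), nor after scaling (0.52, SE 0.22, adjusted p = 0.249).

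C1qb encodes the B chain of C1q, the recognition molecule of the classical complement pathway, which macrophages secrete. It had the highest level of the 7, with 360.4, 283, 180.2 and 338 FPKM in Has-tKO 1 to 4, against 163, 121, 229 and 129.8 FPKM in wildtype 1 to 4. Wildtype 3 was above Has-tKO 3, and the other 3 wildtype libraries were below every Has-tKO library. C1qb did not pass (log2 fold change 0.85, SE 0.25, 95% interval 0.29 to 1.40, adjusted p = 0.110), nor after scaling (0.64, SE 0.30, adjusted p = 0.288). The A chain gene C1qa, its neighbour in the genome, had 85.0 ± 24.5 FPKM in Has-tKO and 45.5 ± 12.9 FPKM in wildtype (SD, n = 4 each; log2 fold change 0.88, SE 0.24, adjusted p = 0.0887, and 0.217 after scaling). The ratio of C1qb to C1qa was 3.18 to 3.69 in Has-tKO and 3.26 to 3.83 in wildtype, so both chains kept nearly the same proportion in all 8 libraries.

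Cybb encodes gp91phox, the membrane-bound catalytic subunit of the phagocyte NADPH oxidase. It had 60.3, 40.6, 43.6 and 43.7 FPKM in Has-tKO 1 to 4, against 7.26, 22.6, 31.0 and 16.1 FPKM in wildtype 1 to 4. The groups did not overlap, and the wildtype libraries spread over a wide range with wildtype 1 lowest. Cybb missed the threshold in the unscaled fit (log2 fold change 1.39, SE 0.34, adjusted p = 0.0590) and passed after scaling (1.20, SE 0.27, adjusted p = 0.0468).

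The order of the libraries was shared in part among the 7 genes. Has-tKO 1 was highest among Has-tKO for Cx3cr1, Fcrls, C1qb and Cybb, and Has-tKO 4 for Tyrobp, Spi1 and Cd52. Has-tKO 3 was lowest for Cx3cr1, Fcrls, C1qb and Cd52, and Has-tKO 2 for Tyrobp, Spi1 and Cybb. Wildtype 3 was highest among wildtype for 6 genes and wildtype 1 for Cd52. Wildtype 1 was lowest for Cx3cr1, Spi1 and Cybb, wildtype 2 for Fcrls, C1qb and Cd52, and wildtype 4 for Tyrobp. Averaged over the 7 genes, each centred on its own mean log2 level, the libraries stood at 0.91, 0.42, 0.27 and 0.81 in Has-tKO 1 to 4, and at -0.95, -0.59, -0.03 and -0.84 in wildtype 1 to 4. In this average Has-tKO 3 was the Has-tKO library nearest to wildtype, and wildtype 3 the wildtype library nearest to Has-tKO. Spi1 lay nearest this mean profile (root mean square difference 0.18 log2 units) and Fcrls farthest (0.61).

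The calls depended on single libraries. Without Has-tKO 1, Has-tKO 4 or wildtype 4 none of the 7 genes passed, with 12, 60 and 10 of the 9916 genes passing in those fits. All 7 had an unadjusted p under 0.05 by limma in the full fit, as had 1657 of the 9916 tested genes. Nothing is read from this, since the 7 were chosen by the same contrast. The count of the 7 genes that passed was 1 without Has-tKO 2, 2 without Has-tKO 3, 4 without wildtype 1, 2 without wildtype 2 and 6 without wildtype 3. In the same order 70, 115, 349, 72 and 345 of the 9916 genes passed in those fits. The fit without wildtype 3 also passed C1qb (adjusted p = 0.0447) and Cybb (0.0166). Fcrls was lost without Has-tKO 1 (adjusted p = 0.0751), Has-tKO 4 (0.0608) and wildtype 4 (0.0807). Cx3cr1 passed without wildtype 1 (0.0315), wildtype 2 (0.0457) and wildtype 3 (0.0140), and was lost without any 1 of the other 5 libraries (0.0520 to 0.147). Of these 8 fits Spi1 passed only in the one without wildtype 3 (0.0140), and Cd52 only in those without Has-tKO 3 (0.0495), wildtype 1 (0.0393) or wildtype 3 (0.0488). Cybb passed also without wildtype 1 (0.0350), and Tyrobp in none of the 8 (0.0573 to 0.285). The direction of all 7 was higher in Has-tKO in each of these fits.

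**Figure D2:**
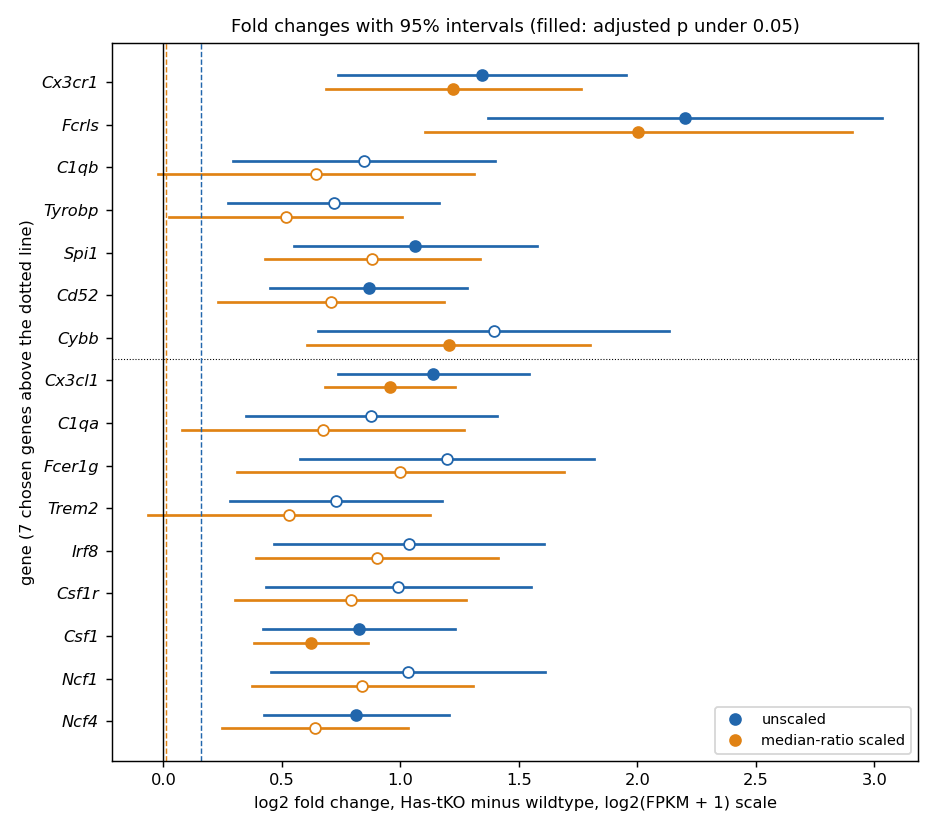
Log2 fold change (Has-tKO minus wildtype, log2(FPKM + 1) scale) with 95% intervals for the 7 genes and 9 partner genes, unscaled (blue) and median-ratio scaled (orange); filled points have an adjusted p under 0.05 and dashed lines mark the median of all tested genes. All 16 genes lie to the right of both medians, from 0.72 for Tyrobp to 2.20 for Fcrls in the unscaled fit.

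Genes around the 7 were read from 11 lists of macrophage genes and pathways, which held 150 different genes. Of these 124 carried a name in the table and 84 were tested, 13 genes belonging to more than 1 list. Of the 84, 17 rose and none fell in the unscaled fit, and 10 rose and 2 fell after scaling. Over all tested genes 157 rose and 19 fell in the unscaled fit, and 172 rose and 108 fell after scaling. The lists were drawn up with earlier results of these data known, and their counts are a description.

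Partners of Spi1 and general macrophage genes were higher in the mean, with few that passed. Of 9 tested macrophage genes 1 rose, Mertk, a receptor for the uptake of dying cells (15.7, 9.18, 9.78 and 10.3 FPKM in Has-tKO 1 to 4, against 2.94, 4.79, 6.18 and 4.41 FPKM in wildtype 1 to 4; log2 fold change 1.14, SE 0.22, adjusted p = 0.0268). The list had a median log2 fold change of 0.99, against 0.16 over all tested genes. Csf1r, the receptor for the macrophage growth factor, had 95.0 ± 21.2 FPKM in Has-tKO and 48.8 ± 18.7 FPKM in wildtype (0.99, adjusted p = 0.0716), and the mannose receptor Mrc1 had 49.6 ± 18.6 FPKM in Has-tKO and 16.6 ± 10.6 FPKM in wildtype (1.59, adjusted p = 0.0550). The lipopolysaccharide co-receptor Cd14 had 29.7 ± 5.97 FPKM in Has-tKO and 16.5 ± 2.61 FPKM in wildtype (0.80, adjusted p = 0.0509, and 0.224 after scaling). Of 9 tested myeloid transcription factors none passed by limma, with 6 at an unadjusted p under 0.05 (list median 0.57). Irf8, which partners with PU.1 on DNA, had 5.66 ± 1.51 FPKM in Has-tKO and 2.35 ± 1.21 FPKM in wildtype (1.04, adjusted p = 0.0648). Cebpb had 57.4 ± 9.63 FPKM in Has-tKO and 34.3 ± 7.28 FPKM in wildtype (0.74, adjusted p = 0.0767, and 0.299 after scaling).

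Of 17 tested genes of ITAM signalling 5 rose (list median 0.95), and 2 rose after scaling. Among them were the receptor Clec5a, which signals through DAP12 (9.42 ± 2.89 FPKM in Has-tKO and 2.98 ± 1.62 FPKM in wildtype; log2 fold change 1.44, SE 0.29, adjusted p = 0.0338), the phosphatase Ptpn6 (1.22, adjusted p = 0.0229) and the exchange factor Vav1 (1.07, adjusted p = 0.0336). After scaling Clec5a and Ptpn6 passed, and Vav1 (adjusted p = 0.0512) did not. Trem2, the best known partner of DAP12, had 27.2 ± 5.85 FPKM in Has-tKO and 16.1 ± 3.68 FPKM in wildtype (0.73, adjusted p = 0.0917). Fcer1g, the other ITAM adaptor of myeloid cells, had 37.1 ± 12.7 FPKM in Has-tKO and 15.7 ± 6.51 FPKM in wildtype (1.20, adjusted p = 0.0550). Hcst, which encodes the adaptor DAP10 beside Tyrobp, was too low for the test, at 0 to 0.832 FPKM in Has-tKO and 0 to 0.110 FPKM in wildtype.

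Of 6 tested Fc receptor genes 1 rose (list median 0.90), the inhibitory receptor Fcgr2b (19.4, 13.2, 10.8 and 18.1 FPKM in Has-tKO 1 to 4, against 2.79, 5.41, 9.98 and 4.07 FPKM in wildtype 1 to 4; log2 fold change 1.40, SE 0.30, adjusted p = 0.0406, and 0.0430 after scaling). Fcgr3 (1.05, adjusted p = 0.151) and Fcgr1 (0.76, adjusted p = 0.298) did not pass. Of 10 tested complement genes 1 rose (list median 0.30), properdin (Cfp), which stabilises the alternative convertase, with 45.0 ± 15.4 FPKM in Has-tKO and 18.6 ± 5.98 FPKM in wildtype (1.22, SE 0.26, adjusted p = 0.0410). It did not pass after scaling (adjusted p = 0.0931). C3, which stromal cells also make, had 46.0 ± 11.2 FPKM in Has-tKO and 31.1 ± 11.4 FPKM in wildtype (0.59, adjusted p = 0.277).

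Of 6 tested genes of the NADPH oxidase 1 rose (list median 0.79), the cytosolic subunit Ncf4, with 7.68 ± 1.57 FPKM in Has-tKO and 3.90 ± 0.630 FPKM in wildtype (log2 fold change 0.81, SE 0.18, adjusted p = 0.0448), and it did not pass after scaling (adjusted p = 0.0919). The cytosolic subunit Ncf1 (31.2 ± 4.60 FPKM in Has-tKO and 15.7 ± 7.10 FPKM in wildtype; 1.03, adjusted p = 0.0701) did not pass, nor did the small GTPase Rac2 (0.62, adjusted p = 0.0898). The ratio of Cybb to Ncf1 was 1.26 to 1.74 in Has-tKO and 0.825 to 1.39 in wildtype, with wildtype 1 lowest.

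Ligands of Cx3cr1 and Csf1r rose. Cx3cl1, the fractalkine that Cx3cr1 binds, had 17.8, 14.6, 18.2 and 12.7 FPKM in Has-tKO 1 to 4, against 4.75, 6.96, 7.66 and 7.28 FPKM in wildtype 1 to 4. It rose by 1.14 on the log2 scale (SE 0.19, adjusted p = 0.0156, and 0.00952 after scaling), and the groups did not overlap. The chemokine receptor Cxcr4 (1.10, adjusted p = 0.0219) rose in both fits. In the list of fractalkine and myeloid chemokine receptors 3 of 7 tested genes rose, Cx3cl1 and Cxcr4 among them (list median 0.58). Csf1, the growth factor of macrophages and the ligand of Csf1r, had 96.2 ± 7.26 FPKM in Has-tKO and 54.9 ± 12.6 FPKM in wildtype (0.83, SE 0.19, adjusted p = 0.0485, and 0.0224 after scaling). With the cytokine receptor subunit Csf2rb (0.91, adjusted p = 0.0330) it made 2 of 5 tested genes of the myeloid growth factor system (list median 0.83).

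Among 4 tested genes of surface proteins anchored like Cd52 and of Siglec receptors none passed by limma in the unscaled fit, with 4 at an unadjusted p under 0.05, 2 in each direction (list median 0.00). The Siglec genes Cd33 (4.43 ± 1.26 FPKM in Has-tKO and 1.49 ± 1.14 FPKM in wildtype; 1.20, adjusted p = 0.0636) and Siglece (0.84, adjusted p = 0.0630) lay higher. The anchored proteins Cd24a (2.82 ± 1.51 FPKM in Has-tKO and 8.31 ± 3.31 FPKM in wildtype; -1.29, adjusted p = 0.0645) and Cd59a (1.97 ± 0.761 FPKM in Has-tKO and 4.21 ± 0.653 FPKM in wildtype; -0.84, adjusted p = 0.0580) lay lower and fell after scaling (adjusted p = 0.0298 and 0.0343). Cd52, with the same kind of anchor, lay higher.

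The name resident macrophage for the 7 genes was set against 15 markers of settled tissue macrophages, which did not rise as a class. They cannot decide the name, since 6 of the 15 stayed below 1 FPKM in every library. Of 7 tested markers none passed by limma, with 2 higher and 2 lower at an unadjusted p under 0.05 (list median 0.21, and 0.02 after scaling). Siglech, Timd4 and Slc2a5 were listed at 0 in all 8 libraries, and P2ry12, a receptor of microglia, had 0.626 to 3.49 FPKM in Has-tKO and 0 to 0.895 FPKM in wildtype. Selenop lay higher (44.1 ± 9.25 FPKM in Has-tKO and 24.3 ± 9.06 FPKM in wildtype; 0.89, adjusted p = 0.109). Olfml3 (61.8 ± 6.63 FPKM in Has-tKO and 88.7 ± 12.2 FPKM in wildtype; -0.51, adjusted p = 0.130) and Tmem119 (37.7 ± 6.58 FPKM in Has-tKO and 59.7 ± 18.7 FPKM in wildtype; -0.61, adjusted p = 0.213), which osteoblast lineage cells also express, lay lower. Trem2, given above, also belongs to this list and lay higher. Because the 2 lower markers are not confined to macrophages, the list leaves the name undecided. The 7 genes are therefore called here macrophage and leukocyte genes.

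Of 13 tested pan-leukocyte genes 5 rose, and 2 after scaling, and 11 of 13 had no overlap between the groups (12.0% of all tested genes). The integrin chain Itgb2 had 66.0 ± 8.18 FPKM in Has-tKO and 32.7 ± 11.1 FPKM in wildtype (log2 fold change 1.05, adjusted p = 0.0471, and 0.0310 after scaling), and Hcls1, an actin regulator of blood cells, rose in the unscaled fit (22.3 ± 6.13 FPKM in Has-tKO and 10.6 ± 2.73 FPKM in wildtype; adjusted p = 0.0478, and 0.156 after scaling). The summed level of the 13 genes was 230.0 to 317 FPKM in Has-tKO and 101 to 201 FPKM in wildtype, and that of 11 macrophage genes 274 to 398 FPKM in Has-tKO and 171 to 261.1 FPKM in wildtype. After scaling the pan-leukocyte sums stayed apart (210 to 304 in Has-tKO and 116 to 192 in wildtype). The scaled macrophage sums overlapped (250.5 to 380.4 in Has-tKO and 173.2 to 252.7 in wildtype).

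Markers of granulocytes and lymphocytes were near 0, and only part of those listed for monocytes and dendritic cells was measurable. The summed level of 10 neutrophil genes was 0 to 0.970 FPKM in Has-tKO and 0.561 to 3.57 FPKM in wildtype, with S100a9, Ly6g and Elane listed at 0 throughout. Of 11 T and NK cell genes 8 were listed at 0 in every library, Cd3e among them, and the sum did not exceed 0.295 FPKM in Has-tKO or 0.192 FPKM in wildtype. The 7 mast cell genes summed to at most 0.238 FPKM in any library, and the 7 B cell genes to 0.589 to 1.53 FPKM in Has-tKO and 0.152 to 0.941 FPKM in wildtype. The 7 monocyte genes summed to 9.50 to 24.0 FPKM in Has-tKO and 8.30 to 15.4 FPKM in wildtype. Of these, 4 stayed below 1 FPKM in every library and a single gene reached 19.5 FPKM, so the sums need not stand for the list. Of 2 tested monocyte genes Ms4a6c rose in both fits (log2 fold change 1.03, adjusted p = 0.0229, and 0.0256 after scaling), and F13a1 did not pass (-0.22, adjusted p = 0.772). Ccr2, the receptor that marks inflammatory monocytes, was too low for the test, at 0.783 to 1.86 FPKM in Has-tKO and 0.0482 to 0.296 FPKM in wildtype, without overlap. Dendritic cell genes summed to 21.6 to 76.1 FPKM in Has-tKO and 9.72 to 30.7 FPKM in wildtype. The upper end was Has-tKO 4 alone, with 49.5 FPKM from Cd74, and the other Has-tKO libraries had 21.6 to 26.7 FPKM. Of the 11 dendritic cell genes 5 stayed below 1 FPKM in every library, 3 of them listed at 0 throughout, so these sums need not stand for the list either. Of 4 tested dendritic cell genes none passed by limma in either fit. Erythroid genes summed to 2.73 to 7.63 FPKM in Has-tKO and 1.78 to 5.60 FPKM in wildtype, and endothelial genes to 5.07 to 5.66 FPKM in Has-tKO and 5.18 to 6.52 FPKM in wildtype. The 5 megakaryocyte genes summed to 14.5 to 32.7 FPKM in Has-tKO and 10.2 to 14.1 FPKM in wildtype. Of these, 3 stayed below 1 FPKM in every library and a single gene reached 26.9 FPKM, so this sum need not stand for the list.

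The cells, labelled as MSc and kept in osteogenic medium, carried stromal and osteoblast transcripts in both genotypes. The stromal genes summed to 698 to 923 FPKM in Has-tKO and 472 to 1264 FPKM in wildtype, and the osteoblast genes to 957 to 1361 FPKM in Has-tKO and 1563 to 1949 FPKM in wildtype, which did not overlap. A single osteoblast gene reached 1407 FPKM, so these sums need not stand for the whole list. Of 7 tested osteoblast genes none passed by limma in the unscaled fit, and 2 fell after scaling. Only 1 of the 7 had a log2 fold change above 0. Adipocyte genes summed to 15.7 to 20.6 FPKM in Has-tKO and 10.8 to 19.1 FPKM in wildtype. What these shifts in other markers contribute to the values of the 7 genes was not tested.

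**Figure D3:**
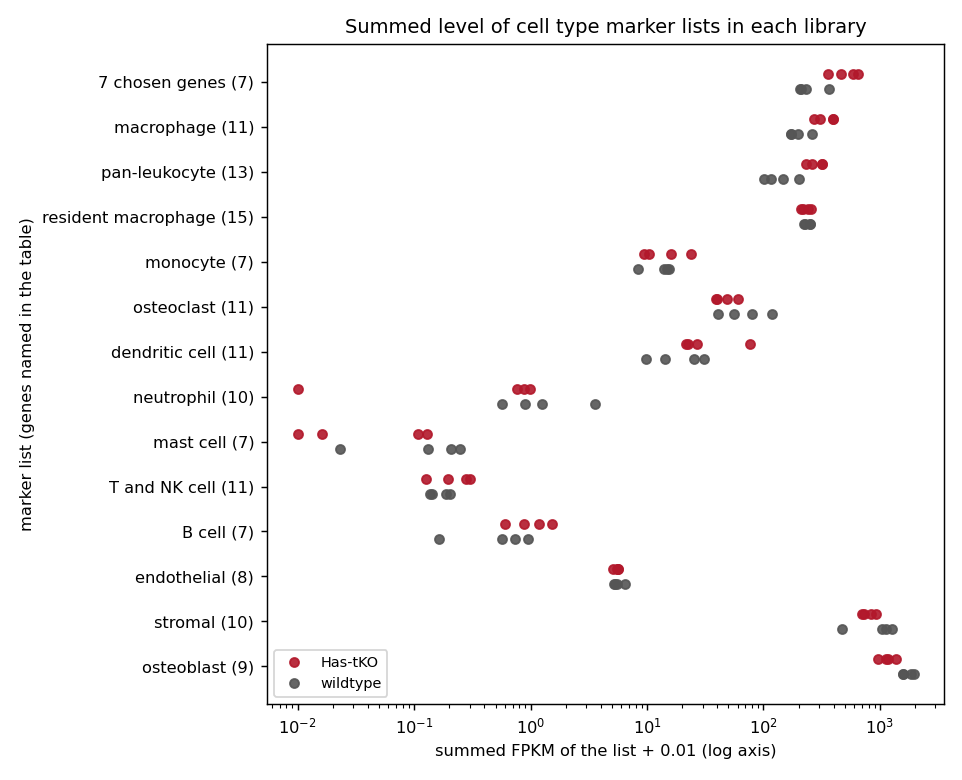
Summed FPKM (log axis, 0.01 added) of marker lists in each Has-tKO library (red, upper row) and wildtype library (grey, lower row), with the number of genes named in the table in brackets. In these unscaled sums macrophage and pan-leukocyte lists lie higher in Has-tKO and the osteoblast list lies lower. Neutrophil, mast, T, NK and B cell lists stay near or below 1 FPKM apart from wildtype 1 and wildtype 3 for neutrophils and Has-tKO 1 and Has-tKO 4 for B cells.

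Set against the leukocyte genes of the same library, the 7 genes did not all shift alike. The log2 level of each gene minus the mean log2 level of the 13 pan-leukocyte genes was taken per library, which cancels any scaling between libraries. Fcrls stood 1.28 higher in Has-tKO than in wildtype on this scale (2.13 ± 0.51 in Has-tKO and 0.86 ± 0.49 in wildtype, SD, n = 4 each), and Cx3cr1 0.87 higher (-1.30 ± 0.15 in Has-tKO and -2.17 ± 0.69 in wildtype), without overlap between the groups. For Cx3cr1 the gap was narrow, from -1.49 in Has-tKO 4 to -1.53 in wildtype 2. Its lowest value, -3.11 in wildtype 1, came from 0.625 FPKM, logged here without a pseudocount. The share of all tested genes without overlap on this scale was not computed. For the other 5 genes the groups overlapped, with differences of 0.45 for Cybb, 0.18 for Spi1, 0.16 for Cd52, -0.16 for C1qb and -0.28 for Tyrobp. The Csf1r groups overlapped too, at 2.64 ± 0.13 in Has-tKO and 2.64 ± 0.10 in wildtype. Other macrophage and myeloid genes moved in both directions, each with overlap. Their differences were 0.65 for Mrc1, 0.24 for Fcer1g, 0.12 for Itgam, -0.12 for C1qa, -0.25 for Trem2 and -0.56 for Cd68. These differences come from the contrast used to choose the genes and carry no test.

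The 6 tested genes of bone-resorbing osteoclasts, cells of the same lineage, were mixed. None passed by limma in the unscaled fit, with 1 higher and 2 lower at an unadjusted p under 0.05, and 4 of 6 had a log2 fold change above 0, or 3 of 6 after scaling, where Atp6v0d2 was at -0.06 (list median 0.19, and 0.02 after scaling). Acp5, the tartrate-resistant acid phosphatase, had 5.60, 7.86, 16.3 and 10.6 FPKM in Has-tKO 1 to 4, against 24.2, 56.9, 28.2 and 15.1 FPKM in wildtype 1 to 4 (log2 fold change -1.47, adjusted p = 0.0653). Acp5 and the gelatinase Mmp9 (-1.23, adjusted p = 0.131) were singled out after their values were seen. The other genes had log2 fold changes of 0.70 for Tnfrsf11a, the receptor for the osteoclast cytokine RANKL, 0.41 for the integrin chain Itgb3, 0.25 for the transcription factor Nfatc1 and 0.13 for the proton pump subunit Atp6v0d2, with adjusted p between 0.156 and 0.832. Relative to the pan-leukocyte genes Acp5 differed by -2.58 and Mmp9 by -2.36, without overlap between the groups. Atp6v0d2 (-0.87), Nfatc1 (-0.69), Itgb3 (-0.42) and Tnfrsf11a (-0.22) overlapped on this scale.

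**Figure D4:**
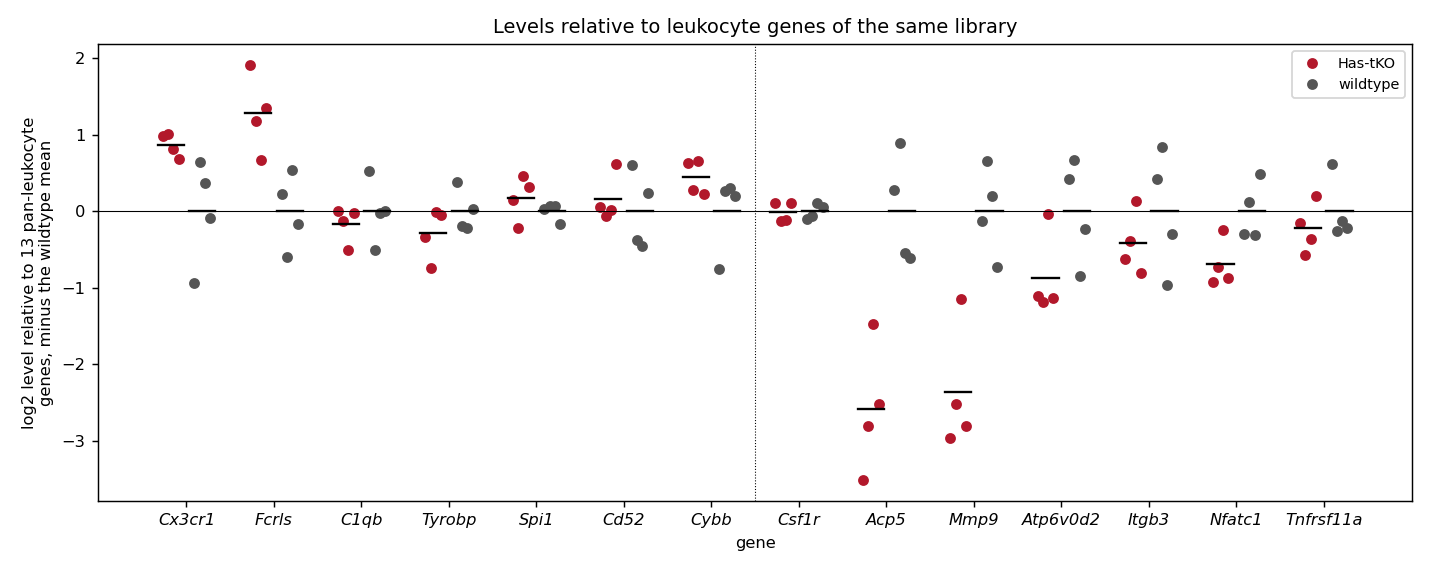
Log2 level relative to the mean of 13 pan-leukocyte genes of the same library, with the wildtype mean of each gene set to 0, in Has-tKO (red) and wildtype (grey) libraries; short bars are means. Fcrls and Cx3cr1 lie above the wildtype libraries, Cx3cr1 by a narrow gap between its nearest libraries. C1qb, Tyrobp, Spi1, Cd52, Cybb and Csf1r overlap with the wildtype libraries. Of the 6 osteoclast genes at the right Acp5 and Mmp9 lie below, and the other 4 overlap.

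The genes with a profile most like the mean of the 7 over the 8 libraries were found among all other tested genes by the root mean square difference of centred log2 levels. The nearest 8 were Nlrp3 (0.09 log2 units), Rftn1 (0.12), Nrros (0.12), Ninj1 (0.13), Vav1 (0.14), Csf1r (0.14), Ms4a6c (0.15) and Ptpn6 (0.15), against a median of 0.63 over 9909 genes. Nlrp3, the sensor of the inflammasome, had 5.51, 3.59, 3.28 and 4.91 FPKM in Has-tKO 1 to 4, against 0.906, 1.59, 2.35 and 1.28 FPKM in wildtype 1 to 4, the same order of libraries as the mean profile. Ms4a6c, a membrane protein of monocytes and macrophages, had 2.89, 2.15, 1.55 and 2.62 FPKM in Has-tKO 1 to 4, against 0.358, 0.679, 0.995 and 0.423 FPKM in wildtype 1 to 4. These genes were found by their likeness to genes chosen for a difference, so their own difference is no further result.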

How the data were processed

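RNA from 8 cultures (4 Has-tKO and 4 wildtype mice) was depleted of ribosomal RNA and made into tagmented (Nextera) libraries, which carry no strand information, per the labels' protocols. The authors deposited FPKM values for 76557 loci, per the file headers. The submitters' processing notes name bcl2fastq, fastp, HISAT2, StringTie and DESeq2 and the builds GRCm39 and hg38, without versions or roles. The sources used here do not say how transcripts were combined into 1 value per locus, and a merged locus can hold reads of a neighbour or antisense gene. Columns were assigned to libraries by the names in the header.

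No counts were used: the commonest ratio of low values between 2 libraries was shared by at most 0.599% of loci, so whole reads were not recovered. Depth is therefore unknown, and counting error cannot be computed. Values were transformed as log2(FPKM + 1), and named loci reaching 1 FPKM in 4 or more libraries (9916) were fitted with limma 3.58.1 in R 4.3.3 (empirical Bayes with an intensity trend, two-sided, Benjamini-Hochberg over all tested genes, threshold 0.05), Has-tKO against wildtype, after a check of the code on simulated data. All 7 genes passed this filter, 6 of them with at least 1 FPKM in all 4 wildtype libraries and Cx3cr1 in 3. Median-ratio size factors, computed on 7435 loci, gave the scaled fit. Alternatives were other filters, a pseudocount of 0.1, unnamed loci included, no trend, a replicate block and libraries left out.

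The 7 genes and all lists were chosen with earlier results of these data known. Other genes named are up to 4 per pathway list with the smallest p, direct partners of the 7, the 8 nearest profiles and defining markers of other cell types. A few genes that this rule names are not reported here. Figures were drawn with matplotlib 3.10.9. Promoter sequences are RefSeq's, build GRCm38.p6.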

Additional observations from a re-analysis of the deposited data

Results flagged for a closer look

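Of 54 named genes examined in both genotypes (108 groups of 4), 6 groups held 1 library far from the other 3, past the critical value of Dixon's ratio. Chance flags about 1 in 20 groups. For Fcrls it was wildtype 3, with 28.9 FPKM against 9.89 to 11.4 FPKM in the other wildtype libraries. For Cybb it was Has-tKO 1, with 60.3 FPKM against 40.6 to 43.7 FPKM in the other Has-tKO libraries. For Mertk it was also Has-tKO 1, with 15.7 FPKM against 9.18 to 10.3 FPKM. For C3 it was Has-tKO 2, with 62.7 FPKM against 38.3 to 41.5 FPKM. For Ncf4 it was wildtype 3, with 4.84 FPKM against 3.52 to 3.64 FPKM. For Hcst it was wildtype 2, with 0.110 FPKM, where the other wildtype libraries were listed at 0. Fcrls and Ncf4 were highest in wildtype 3, the wildtype library with the highest mean over the 7 genes.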

How the results depend on the processing

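Over 25 alternatives per gene, 175 values in all, none of the 7 genes changed direction. In 103 of them the side of the threshold stayed as in the unscaled fit of 8 libraries, in 65 a pass was lost, and in 7 one was gained. The numbers of all tested genes, of the 7 genes and of 84 genes of the pathway lists that passed were 176, 4 and 17 in that fit. They were 280, 3 and 12 after scaling, 2, 0 and 0 with no filter on low values (27220 loci tested), 136, 2 and 11 with a mean of at least 0.5 FPKM, 111, 1 and 7 with a pseudocount of 0.1, and 137, 1 and 6 with unnamed loci included. Without wildtype 1 and Has-tKO 4 they were 358, 3 and 12, and after scaling 280, 1 and 6. With 1 library left out they ranged over 10 to 349, 0 to 6 and 0 to 40. The scaled fits with libraries left out were chosen after seeing the data. They gave 33, 0 and 1 without Has-tKO 1, 133, 1 and 6 without Has-tKO 2, 161, 2 and 12 without Has-tKO 3, 82, 0 and 3 without Has-tKO 4, 326, 3 and 10 without wildtype 1, 51, 0 and 3 without wildtype 2, 349, 4 and 29 without wildtype 3, and 20, 0 and 1 without wildtype 4. With the replicate number as a block they were 147, 2 (Cx3cr1 and Fcrls) and 10. Deviations of same-numbered libraries had correlations of -0.121 to 0.311, within the range of differently numbered ones (-0.338 to 0.336). With 4 libraries per genotype this cannot settle whether the numbers pair the samples. No gene of the 7 fell below the filter, so the permutation test planned for that case was not needed. Where a count changed, the cause was not tested. Depth is unknown, and values near or below 1 FPKM are the least certain.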
